A study of Saccharomyces cerevisiae with 7 samples.

Results

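The genes described here encode the proteins that start and carry out chromosomal DNA replication in budding yeast, Saccharomyces cerevisiae. They were chosen by systematic name as 47 genes in 3 groups: 14 for licensing of origins, 10 for firing of origins and 23 for the replication fork. The deposited table has 6141 rows, of which 5666 hold values, and 43 of the 47 genes are among those 5666. MCM6 (YGL201C), MCM10 (YIL150C), POL12 (YBL035C) and CTF4 (YPR135W) are listed without a value and are not described further. Yeast cultures were sampled during meiosis at 1, 2, 3, 4, 5, 6 and 8 h, and messenger RNA of each time point, in the red dye Cy5, was hybridised on 2-colour arrays against a pool of messenger RNA from all time points, in the green dye Cy3. Each value is the log2 of a gene's ratio to this pool at that hour over its ratio to the pool at 0 h, so 0 is the gene's own level at 0 h, 1 is 2-fold above it and -1 is 2-fold below it. The series design names 3 independent cultures, and the table holds 1 column for each hour, so no value has a replicate error. Information on the strain, its genotype, the medium and the array platform was not given in the sources used here.

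Replication begins in G1 with licensing, when the origin recognition complex, Cdc6 and Cdt1 (the product of TAH11) load the ring-shaped Mcm2 to Mcm7 helicase onto origins. Firing follows when the kinases Cdc7-Dbf4 and Cdk1 lead Sld3, Dpb11 and their partners to join Cdc45 and the GINS complex to that ring, and DNA polymerases then copy both strands at the moving fork. A cell entering meiosis passes through a single premeiotic S phase with largely the same proteins, and both meiotic divisions then follow without another round of replication. In growing cells many of these genes are transcribed in a burst at the boundary of G1 and S.

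The columns carried the marks of meiosis. All 6 meiotic marker genes (IME1, IME2, REC8, HOP1, DMC1 and NDT80) were at least 2-fold above 0 h at 2 or more consecutive hours, with a median log2 ratio of 4.56 at 1 h. NDT80, which encodes the transcription activator of middle sporulation genes, was at -0.24, -0.10, 1.62, 4.32, 6.90, 7.10 and 6.98 at the 7 hours. Of 5 genes that mark haploid cells, 3 had values. MFA2 and MF(ALPHA)1, the mating pheromone genes, stayed between -0.03 and 0.42, while the pheromone receptor gene STE3 had its lowest value at 1 h (0.57) and its highest at 5 h (4.55). Its part in the values below was not tested. The median over all 5666 genes lay between -0.04 and 0.01 at every hour, and their SD was 1.05 at 4 h and 1.48 at 5 h, so that 2-fold differences became more frequent late in the course for genes in general.

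Messenger RNAs of the replication genes stood above their 0 h level early and were highest, as a set, at 2 h. The median log2 ratio of the 43 genes was 0.47, 0.79, 0.52, 0.52, 0.36, 0.35 and 0.08 at the 7 hours. At least 2-fold above 0 h were 7, 17, 11, 9, 11, 9 and 6 of the 43. The corresponding shares of all 5666 genes were 7.11%, 9.42%, 9.81%, 12.1%, 17.6%, 17.8% and 17.6%, against 16.3%, 39.5%, 25.6%, 20.9%, 25.6%, 20.9% and 14.0% of the replication genes. The excess over the table as a whole was therefore widest at 2 h, and at 8 h the share was the smaller one. The highest of the 7 values fell at 2 h in 26 replication genes (60.5%), against 11.0% of all genes. From 1 h to 2 h the ratio became larger in 38 of the 43, against 51.8% of all genes, and at 8 h it was smaller than at 2 h in 35, against 51.9%. In a bulk culture, a change in the share of cells that hold a transcript cannot be told apart from a change in the amount per cell.

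The steps to and from the early maximum were each below 2-fold. No replication gene stood at least 2-fold higher at 2 h than at 1 h (4.77% of all genes did) or at least 2-fold lower at 3 h than at 2 h (0.388% did). Such steps were rare over the whole table too, so their absence is not in itself a feature of replication genes. The nearest to a 2-fold step were PRI2 and RFA3, each 0.97 higher at 2 h than at 1 h, and POL30, which was 0.99 lower at 3 h than at 2 h.

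The 3 groups differed in how far they shared this course, which is described here without a test because genes are not replicates. Fork genes had medians of 0.64, 1.06, 0.61, 0.57, 0.46, 0.36 and 0.03, and all 21 were higher at 2 h than at 1 h. Firing genes had medians of 0.41, 1.01, 0.71, 0.63, 0.56, 0.42 and 0.71, with 8 of 9 higher at 2 h than at 1 h. Licensing genes had the lowest medians at each hour, at 0.35, 0.54, 0.18, 0.18, 0.12, 0.04 and -0.19, with 9 of 13 higher at 2 h than at 1 h. The maximum was at 2 h in 17 of the 21 fork genes, 4 of the 9 firing genes and 5 of the 13 licensing genes. At 8 h the fork genes were close together, between -0.54 and 1.03, whereas licensing genes spanned -0.85 to 3.37.

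**Figure D1:**
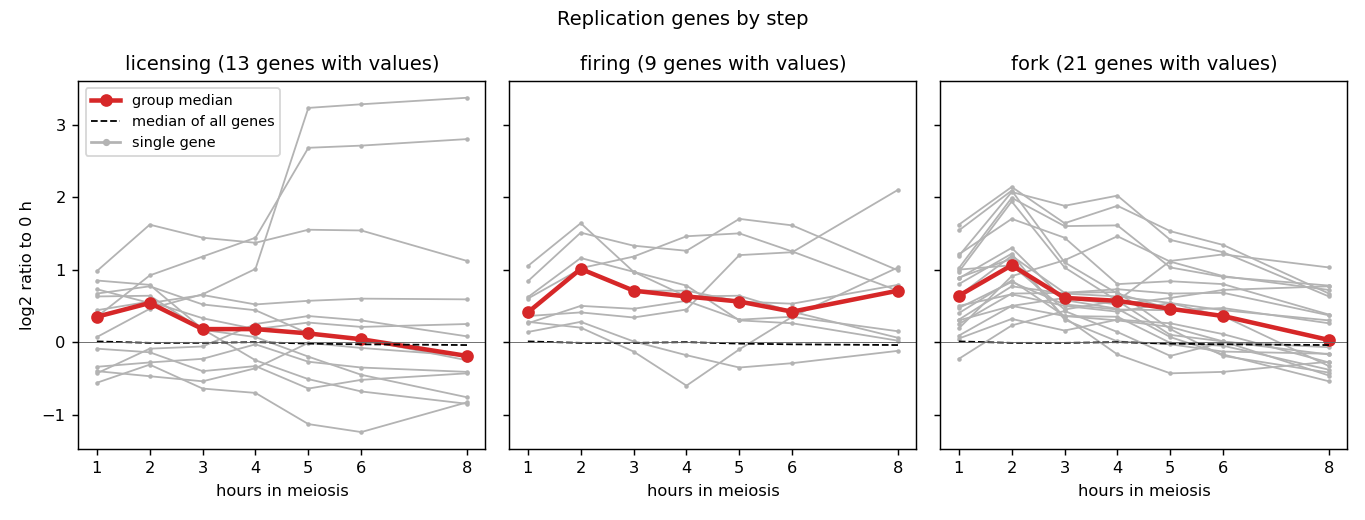
Log2 ratio to 0 h (vertical axis) against hours in meiosis (horizontal axis) for licensing, firing and fork genes. Grey lines are single genes, the red line is the group median and the dashed line is the median of all 5666 genes; the fork median is highest at 2 h (1.06) and near 0 at 8 h (0.03), and 2 licensing genes leave the rest of their group at 5 h.

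By a rule of size, at least 2-fold above 0 h at 2 or more consecutive hours, 15 of the 43 were induced, against 21.8% of all genes. They were ORC1, ORC3 and MCM5 among licensing genes, CDC45, SLD5, CDC7 and DBF4 among firing genes, and POL1, PRI2, POL31, DPB4, RFA1, RFA2, RFA3 and POL30 among fork genes. By the same rule below 0 h, only ORC2 was repressed, against 16.4% of all genes. The other 27 met neither rule.

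Change within the 7 hours was tested with limma, by fitting each gene of the table with a linear and a squared term of the hour, at a Benjamini-Hochberg adjusted p of 0.05 over all 5666 genes. Rose and fell below refer to genes called by this test, in the direction of the fitted value at 8 h less that at 1 h. Of the 43 replication genes 16 fell, against 25.2% of all genes, and 7 were called upward, against 23.3%. In either direction 23 were called (53.5%), close to the 48.5% of all genes, so the number called is not in itself a feature of replication genes. The fork group held 12 of the 16 that fell. A fall together with a maximum at 2 h was found in 15 replication genes (34.9%) and in 4.64% of all genes. The p-values rest on how the hours scatter around the fitted curve, not on differences between cultures, and they are too small where hours of a culture share errors. Leaving out single hours gave 7 genes that fell without 6 h, 10 without 3 h and 10 without 8 h, and 4 upward genes without 1 h. In these runs calls became fewer over all 5666 genes too. Downward calls there numbered 718 without 6 h, 1013 without 3 h and 1152 without 8 h, against 1427 with all hours. Upward calls there numbered 1128 without 1 h, against 1320. Not every run gave fewer calls. Without 1 h more replication genes fell, 21, while downward calls over all genes numbered 1234. Without 8 h upward calls over all genes numbered 1488. In 10 of the 23 genes the adjusted p stayed below 0.05 whichever single hour was left out. Among these 10, CDC7 turned in direction without 1 h. The hours that end a call are named beside the other 13.

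Among the licensing genes, the origin recognition complex did not move as a unit. This complex of 6 subunits marks origins throughout the cell cycle and is the platform for helicase loading. ORC1 (YML065W), its largest subunit and an ATPase, was at 0.35, 0.92, 1.18, 1.44, 2.68, 2.71 and 2.80, and rose (adjusted p = 0.00642). ORC3 (YLL004W) was at 0.07, 0.46, 0.66, 1.01, 3.23, 3.28 and 3.37, and rose as well (adjusted p = 0.014). Both were near their 0 h level at 1 h and stepped up between 4 h and 5 h, by 1.24 and 2.22 on the log2 scale, ending 6.96-fold and 10.3-fold above 0 h. They were the only replication genes to stand at least 2-fold higher at 5 h than at 4 h, which 9.35% of all genes did.

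ORC2 (YBR060C) took the opposite side of the complex, at -0.56, -0.31, -0.64, -0.70, -1.13, -1.24 and -0.83. It was the only replication gene to lie 2-fold below 0 h at any hour, which it did at 5 h (15.4% of all genes did) and 6 h (14.3%). Its trend missed the threshold (adjusted p = 0.131). ORC6 (YHR118C) rose (adjusted p = 0.0193, but up to 0.111 without 1, 2 or 6 h) within a range of -0.43 at 1 h to 0.36 at 5 h. ORC4 (YPR162C) stayed between -0.54 and -0.01 and ORC5 (YNL261W) between 0.18 and 0.56, and neither was called (adjusted p = 0.261 and 0.259). The distance between the highest and the lowest subunit was 1.00 at 1 h and 4.36 at 5 h.

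The loading factors stayed at or a little below their 0 h level. CDC6 (YJL194W), the ATPase that closes the loading reaction with the origin recognition complex, was at -0.09, -0.14, -0.40, -0.33, -0.64, -0.52 and -0.43. TAH11 (YJR046W), whose product Cdt1 escorts the helicase to the origin, was at -0.34, -0.28, -0.23, -0.03, -0.27, -0.35 and -0.41. All 14 values of this pair were below 0, and neither trend passed (adjusted p = 0.0833 and 0.392). Neither gene showed the 2 h maximum of the fork genes: CDC6 was highest at 1 h and TAH11 at 4 h.

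The helicase subunit genes were alike at 1 h and drew apart afterwards. At 1 h all 5 measured subunits lay between 0.63 and 0.98, and at 8 h they spanned -0.85 to 1.12. MCM7 (YBR202W) was at 0.85, 0.79, 0.18, -0.25, -0.51, -0.68 and -0.85, and fell (adjusted p = 0.0043). MCM3 (YEL032W) was at 0.63, 0.64, 0.17, 0.07, -0.20, -0.45 and -0.76, and fell (adjusted p = 0.00513). MCM2 (YBL023C) was at 0.67, 0.77, 0.52, 0.44, 0.12, 0.04 and -0.25, and fell (adjusted p = 0.0109). These 3 had a lower value at each hour after 2 h than at the hour before and ended below their 0 h level.

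MCM5 (YLR274W) and MCM4 (YPR019W) did not follow. MCM5 was at 0.98, 1.62, 1.44, 1.37, 1.55, 1.54 and 1.12, more than 2-fold above 0 h from 2 h on (adjusted p of its trend 0.168). MCM4 was the flattest of the 43, between 0.52 at 4 h and 0.73 at 1 h (adjusted p = 0.716). Although the encoded proteins work as a ring with 1 copy of each, the gap between the highest and lowest messenger RNA ratio was 0.35 at 1 h and 2.22 at 6 h.

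Among the firing genes, those of the Cdc7-Dbf4 kinase stayed high through the middle of the course. This kinase phosphorylates the loaded helicase, and in budding yeast meiosis it also acts in the formation of recombination breaks. CDC7 (YDL017W), the catalytic subunit, was at 0.41, 1.02, 1.18, 1.46, 1.50, 1.25 and 0.71. DBF4 (YDR052C), the subunit that activates it, was at 0.84, 1.51, 1.33, 1.26, 1.70, 1.61 and 0.99. Both were more than 2-fold above 0 h from 2 h to 6 h and highest at 5 h, 3 h after the maximum of most fork genes. For DBF4 the lead of 5 h (1.70) over 2 h (1.51) was smaller than the scatter around its fitted curve (0.233). CDC7 was nearly as high at 4 h (1.46) as at 5 h (1.50). The curve of CDC7 passed the test (adjusted p = 0.00765) as a rise and a later decline, so its upward label rests on a fitted difference of 0.22 that was negative without 1 h (-0.29) or with columns scaled to the same spread (-0.215). The trend of DBF4 did not pass (adjusted p = 0.108).

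CDC45 (YLR103C), part of the active helicase, followed the fork genes. It was at 1.05, 1.64, 0.97, 0.63, 0.64, 0.42 and 0.06, with its maximum at 2 h, and fell (adjusted p = 0.0338, but up to 0.0983 without 3, 4, 5, 6 or 8 h). SLD3 (YGL113W), which brings Cdc45 to the licensed origin, was at 0.14, 0.28, 0.01, -0.18, -0.35, -0.29 and -0.12, and did not pass (adjusted p = 0.0901). DPB11 (YJL090C), a scaffold protein of origin firing that also serves the DNA damage checkpoint, stayed between 0.15 and 0.57 (adjusted p = 0.219). SLD3 and DPB11 were within 1.5-fold of 0 h at every hour.

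The 4 GINS genes split into pairs by the hour of their maximum, 2 h or 8 h, but the courses within a pair differed. PSF1 (YDR013W) was at 0.62, 1.16, 0.97, 0.78, 0.30, 0.26 and 0.02, with an early maximum, and its decline did not pass (adjusted p = 0.0588). PSF2 (YJL072C) was also highest at 2 h (1.01) and lowest at 6 h (0.53), but was at 0.79 at 8 h (adjusted p = 0.821). SLD5 (YDR489W) was at 0.36, 0.41, 0.34, 0.45, 1.20, 1.24 and 2.10, and rose (adjusted p = 0.00579). Its values were flat to 4 h and then higher in 2 steps, of 0.75 from 4 h to 5 h and of 0.86 from 6 h to 8 h. PSF3 (YOL146W) was at 0.28, 0.20, -0.13, -0.60, -0.10, 0.35 and 1.03, a dip at 4 h followed by its maximum at 8 h (adjusted p = 0.0195). The upward label of PSF3 rests on the last hour, since without 8 h its fitted change was -0.146 (adjusted p = 0.0937).

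At the fork, the 3 genes of replication protein A moved together. This trimer coats single-stranded DNA in replication, repair and meiotic recombination. RFA1 (YAR007C) was at 1.62, 2.14, 1.64, 1.88, 1.53, 1.34 and 0.67, and fell (adjusted p = 0.0176, but 0.187 without 8 h). RFA2 (YNL312W) was at 1.19, 2.07, 1.88, 2.02, 1.41, 1.24 and 0.63, and fell (adjusted p = 0.0331, but up to 0.0716 without 2, 3, 4, 6 or 8 h). RFA3 (YJL173C) was at 1.02, 1.99, 1.60, 1.61, 1.03, 0.90 and 0.78, and its trend was not called (adjusted p = 0.189). All 3 were about 4-fold above 0 h at 2 h (4.41-fold, 4.20-fold and 3.97-fold), and the gap between them was 0.15 at 2 h and again 0.15 at 8 h. From 2 h to 4 h all 3 stayed above 1.5 on the log2 scale, and at 4 h DPB4 (YDR121W) was the only other fork gene above 1.

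POL30 (YBR088C), which encodes the sliding clamp PCNA, had the widest fall in the set. It was at 1.54, 2.09, 1.10, 0.67, 0.46, 0.36 and -0.33 (adjusted p = 0.0123). Its value at 8 h was 2.42 below that at 2 h. Of the 5 clamp loader genes, whose products open PCNA and place it on DNA, only RFC5 (YBR087W) fell (adjusted p = 0.0224, but 0.0534 without 6 h), with a highest value of 1.19 at 2 h and a lowest of -0.42 at 8 h. The other 4 were not called: RFC1 (YOR217W) stayed between -0.23 and 0.43, RFC2 (YJR068W) between -0.28 and 0.32, RFC3 (YNL290W) between 0.30 and 0.66 and RFC4 (YOL094C) between 0.25 and 0.73. RFC2 to RFC5 are shared with the alternative loaders that hold Rad24, Ctf18 or Elg1 in place of Rfc1.

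The polymerase alpha-primase genes, which prime new strands, differed in height but all had their maximum at 2 h. POL1 (YNL102W), the polymerase subunit, was at 1.21, 1.70, 1.44, 0.80, 0.84, 0.80 and 0.38, and fell (adjusted p = 0.0494, but up to 0.155 without 2, 3, 5, 6 or 8 h). PRI2 (YKL045W), the large primase subunit, was at 0.97, 1.94, 1.03, 0.57, 1.12, 1.21 and 1.03, with a maximum at 2 h, a low at 4 h and a return above 1 (adjusted p = 0.842). A quadratic curve cannot follow such a course, and its scatter around the curve was 0.489, against a median of 0.188 over the 43 genes. PRI1 (YIR008C), the catalytic primase subunit, stayed lower, between -0.38 at 8 h and 0.50 at 2 h, and fell (adjusted p = 0.0467, but up to 0.138 without 2, 3, 4, 6 or 8 h).

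In polymerases delta and epsilon the catalytic subunit genes had the narrowest ranges, 0.57 for POL3 (YDL102W) and 0.47 for POL2 (YNL262W). POL3, the catalytic subunit of polymerase delta, which copies the lagging strand, was at 0.47, 0.83, 0.52, 0.45, 0.44, 0.47 and 0.26 (adjusted p = 0.316). POL31 (YJR006W), an accessory subunit, was at 1.00, 1.06, 0.45, 0.57, 0.10, 0.01 and -0.17, and fell (adjusted p = 0.0116). POL32 (YJR043C), another accessory subunit, was at 0.88, 1.30, 0.58, 0.46, 0.07, -0.17 and -0.54, and fell (adjusted p = 0.0112). The 3 delta genes were within 0.13 of each other at 3 h and 0.80 apart at 8 h.

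POL2, the catalytic subunit of polymerase epsilon, which copies the leading strand, was at 0.30, 0.50, 0.61, 0.52, 0.61, 0.72 and 0.77 (adjusted p = 0.115). It was the only fork gene with its highest value at 8 h. DPB2 (YPR175W), an essential accessory subunit, was at 0.40, 0.85, 0.36, 0.30, 0.21, 0.01 and -0.46, and fell (adjusted p = 0.0229, but up to 0.148 without 6 or 8 h). The small histone-fold subunits differed from each other as well. DPB3 (YBR278W) fell (adjusted p = 0.0499, but up to 0.179 without 2, 3, 4, 5, 6 or 8 h), with 0.77 at 2 h and 0.03 at 8 h. DPB4, which is also a chromatin remodelling subunit, was at 0.19, 0.91, 1.13, 1.46, 1.11, 0.91 and 0.72, with a maximum at 4 h. Its curve passed (adjusted p = 0.0402, but up to 0.173 without 1, 2, 3, 4, 5 or 6 h), with a fitted change of 0.24 that was -0.334 without 1 h and -0.104 with columns scaled to the same spread.

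The genes that finish Okazaki fragments had a brief maximum. CDC9 (YDL164C), the DNA ligase that seals nicks, was at 0.80, 1.22, 0.31, 0.01, -0.03, -0.13 and -0.16, and fell (adjusted p = 0.0327, but up to 0.0849 without 3, 4, 5 or 6 h). RAD27 (YKL113C), the flap endonuclease that trims fragment ends, was at 0.89, 1.15, 0.34, -0.17, -0.43, -0.41 and -0.27, and fell (adjusted p = 0.0162, but 0.0508 without 6 h). Both were more than 2-fold above 0 h at 2 h alone, and at 3 h they were 0.91 and 0.81 lower. Across the 7 hours the pair differed by at most 0.40.

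**Figure D2:**
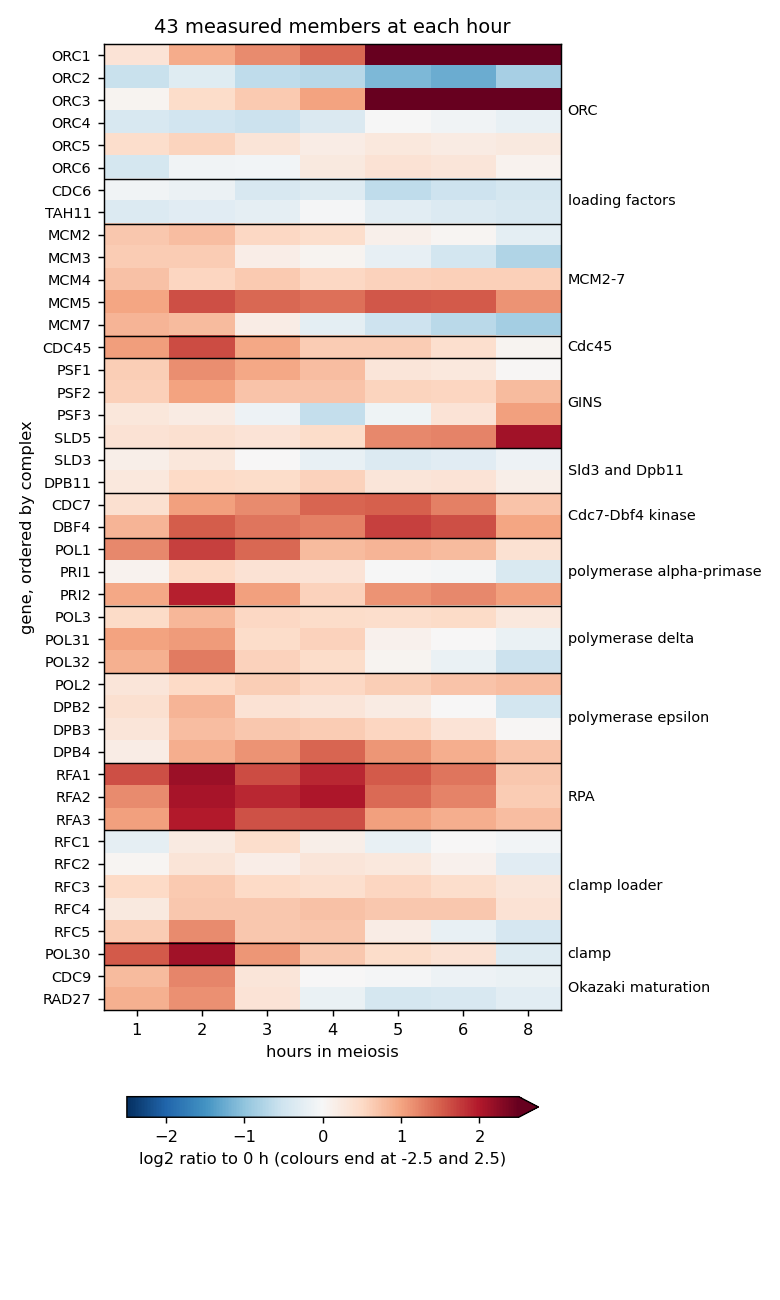
Log2 ratio to 0 h of the 43 measured replication genes (rows, grouped by complex) at each hour in meiosis (columns), red above and blue below 0 h. The 2 h column is the reddest for RPA, the clamp POL30, polymerase alpha-primase and the Okazaki genes CDC9 and RAD27, while ORC1, ORC3 and SLD5 are highest at 8 h.

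The complexes therefore differed in how far apart their subunits lay. Replication protein A was never more than 0.60 apart, at 1 h. The GINS genes were 0.34 apart at 1 h and 2.08 apart at 8 h, the helicase genes 0.35 and 1.97, and the origin recognition complex 1.00 and 4.20. These complexes differ in their number of measured subunits (3, 4, 5 and 6), and a wider gap is likelier with more subunits. The clamp loader, with 5 measured subunits, was at most 0.96 apart (2 h), and the Cdc7-Dbf4 kinase, with 2, at most 0.49 (2 h). At 1 h and 8 h, the gap was 0.60 and 0.15 in replication protein A, 0.87 and 0.79 in the clamp loader and 0.43 and 0.28 in the kinase. Over all 5666 genes the SD was 0.894 at 1 h and 1.51 at 8 h, so values lay further apart late for genes in general. The widest gaps were 1.44 (2 h) in polymerase alpha-primase, 0.80 (8 h) in polymerase delta and 1.23 (8 h) in polymerase epsilon.

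**Figure D3:**
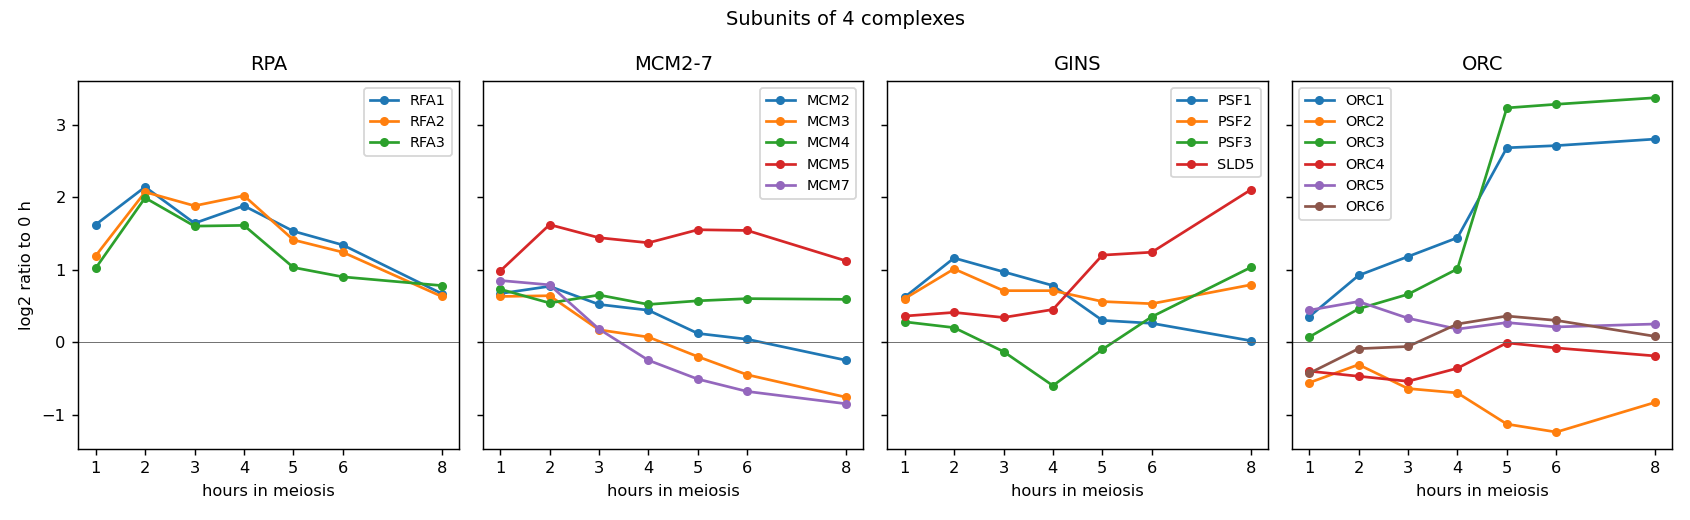
Log2 ratio to 0 h (vertical axis) against hours in meiosis (horizontal axis) for the measured subunits of 4 complexes, 1 line for each gene. The 3 RPA lines lie within 0.60 of each other at every hour, whereas the ORC lines are 4.36 apart at 5 h.

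The other genes of the pathway had a similar early maximum. Of 23 further replication genes (helper proteins of the fork and of chromatin assembly behind it), 19 had values, with medians of 0.50, 0.82, 0.45, 0.13, 0.04, 0.06 and 0.00. In this list 10 of 19 were highest at 2 h, 8 fell, 2 rose and 9 were not called, against 11.0% of all genes highest at 2 h, 25.2% down and 23.3% up. In either direction 52.6% of the list was called, close to the 48.5% of all genes. MSI1, a subunit of chromatin assembly factor 1, had the list's highest value (2.28 at 5 h) after 0.86 at 4 h, and rose (adjusted p = 0.0369). RNH202, a subunit of ribonuclease H2, was lowest at 1 h (1.07) and highest at 2 h (2.03), with an adjusted p of 0.13. RNH201, the catalytic subunit of the same enzyme, fell (adjusted p = 0.0161), with 1.02 at 2 h and -0.84 at 8 h. SPT16, of the histone chaperone FACT, was lowest, with -1.08 at 3 h and at 4 h (adjusted p = 0.382).

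Of 11 listed regulators of the passage from G1 to S, 10 had values, of which 5 rose, 1 fell and 4 were not called, against 23.3% of all genes up and 25.2% down. None of the 10 was highest at 2 h, which is near the 11.0% of all genes. CLB5 and CLB6, the S-phase cyclin genes, stood at 2.47 and 1.71 at 2 h and had their maxima late, at 4.38 (6 h) and 5.82 (8 h), and rose (adjusted p = 0.0126 and 0.00989). SIC1, the inhibitor of the kinase bound to those cyclins, fell (adjusted p = 0.0036), with 0.03 at 1 h and -1.54 at 8 h. The G1 cyclin gene PCL1 stayed between -0.90 and -0.10 (adjusted p = 0.0627).

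ORC1 and ORC3 shared a feature of position that was looked for after their values were seen. Each lies head-to-head with a gene of spore formation, so that the start of both genes of a pair faces the same intergenic region. This is by the gene order of the RefSeq table of assembly R64. SMA2, beside ORC1, was at 0.51, 1.01, 1.66, 3.37, 7.22, 7.43 and 7.81. SPO75, beside ORC3, was at 0.13, 0.11, 0.18, 1.16, 3.50, 3.49 and 3.33. ORC3 and SPO75 were within 0.27 of each other at 4, 5, 6 and 8 h, whereas SMA2 ended 5.01 above ORC1.

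Of the 43 replication genes 31 were head-to-head with the gene upstream, and that gene had values in 28. In 3 of the 28 it was at least 2-fold higher at 5 h than at 4 h, and the replication gene made such a step in 2 of these, ORC1 and ORC3. The exception was POL3, which was 0.01 lower at 5 h than at 4 h, while QRI1, an enzyme gene of the chitin precursor pathway beside it, was 1.54 higher. Over the whole table, 222 genes had a head-to-head neighbour with such a step, and 54 of these (24.3%) made it themselves. SLD5 lies head-to-head with the dynein subunit gene PAC11, which was at 1.71 at 4 h, 2.67 at 5 h and 2.80 at 8 h. From 4 h to 5 h PAC11 stepped by 0.96 and SLD5 by 0.75, both less than 2-fold. The other genes called upward were also head-to-head with a neighbour. At 1 h and 8 h, SET1 beside ORC6 was at 0.31 and 1.11, and PEX11 beside PSF3 at 1.22 and -0.98. ERP3 beside CDC7 was at 0.97 and 0.53, and TRM1 beside DPB4 at -1.08 and -1.18. No probe design or strand was given in the sources used here, and whether signal of a neighbour entered these values was not tested.

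**Figure D4:**
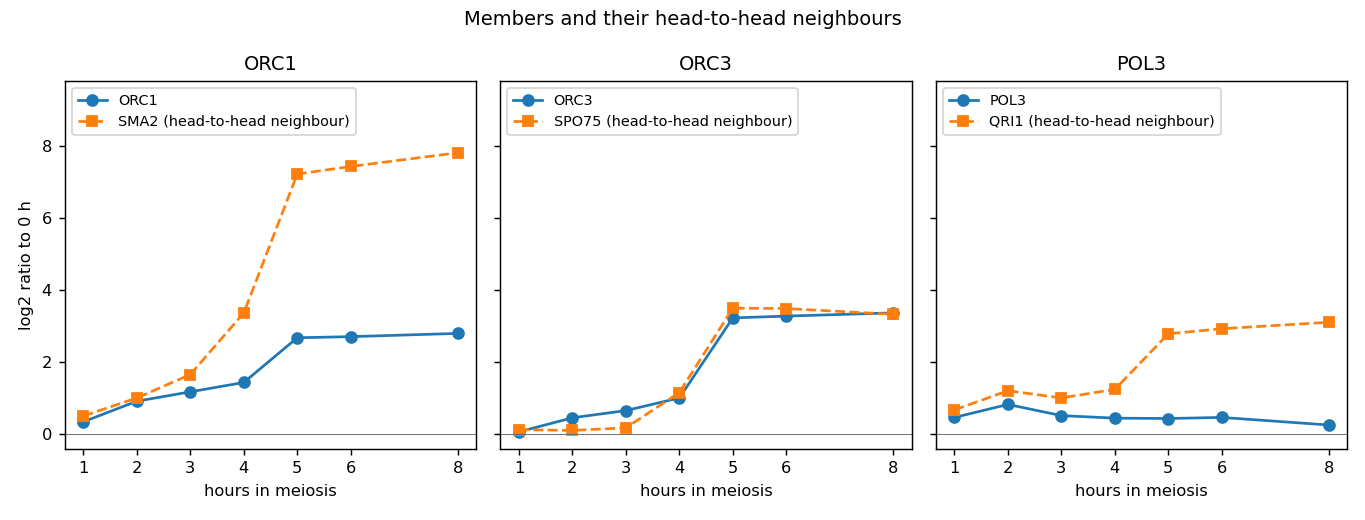
Log2 ratio to 0 h (vertical axis) against hours in meiosis (horizontal axis) for ORC1, ORC3 and POL3 (blue circles) and the gene head-to-head with each (orange squares). ORC3 and SPO75 nearly coincide from 4 h on, SMA2 rises far above ORC1, and POL3 stays flat beside QRI1.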

How the data were processed

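The authors' deposited log2 ratios were used unchanged. Per the series design, each is the log2 of a time point's ratio to a mix of meiotic messenger RNA over the same ratio at 0 h, so an error at 0 h enters all 7 values of a gene. The way the 3 cultures were combined, the correction for background, the filters and any centring of columns were not given in the sources used here. No filter was applied beyond the presence of values, and precision is limited by the number of arrays.

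All 47 members matched the RefSeq table of assembly R64. The trend test used limma 3.58.1 in R 4.3.3 (4 residual and 2.354 prior degrees of freedom). The test was also run on simulated data of 5666 genes. There it recovered 26.9% of 67 genes changed by 1, 52.2% of 67 changed by 2 and 86.4% of 66 changed by 3. These changes are on the log2 scale. False calls made up 1.79% of those made there. Only these few genes were changed in that run, whereas 48.5% of all genes were called in the measured data. Rates of recovery and of false calls in the measured data are therefore not known from it. Group medians and 2-fold rules have no test. The members, lists, tests and alternatives were chosen with earlier results of these data known. Values at all hours are given for 17 listed members except CTF4, which has no value. They are also given for the 3 highest and 3 lowest of each group and for those past the 2-fold rule. Of the other lists, the 2 highest and 2 lowest are named.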

Additional observations from a re-analysis of the deposited data

How the results depend on the processing

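No paired analysis was possible because each hour has a single column. The calls of 9 members (MCM2, MCM3, MCM7, ORC1, ORC3, POL30, POL31, POL32 and SLD5) held in direction and threshold under all 13 alternatives of the trend test, and 14 others lost or turned theirs under at least 1. Upward calls numbered 3 with a linear term alone, and between 4 and 6 with an hour left out. Downward calls numbered between 7 (without 6 h) and 21 (without 1 h). Over all 5666 genes, a linear term alone gave 1153 upward calls, against 1320. Leaving out an hour gave between 669 (without 2 h) and 1488 (without 8 h) upward calls there. Downward calls there lay between 718 (without 6 h) and 1242 (without 4 h), against 1427. Without 1 h they numbered 1234, so the larger number of members was not shared by the table. With an hour left out, the fitted change lay between -0.146 and 1.02 for PSF3, -0.29 and 0.846 for CDC7, and -0.334 and 0.647 for DPB4, and it was -0.215 for CDC7 and -0.104 for DPB4 with columns scaled. Induced genes numbered 28 at 1.5-fold and 3 relative to 1 h. Repressed genes numbered 2 at 1.5-fold, 5 relative to 1 h, and 0 over 3 consecutive hours or with columns scaled. Shares of all genes under these altered fold rules were not counted, so the shifts cannot be set against the table as a whole. Relative to 1 h, the 2 h medians were 0.10 (licensing), 0.41 (firing) and 0.45 (fork), and the 8 h medians 0.15 (firing) and -0.47 (fork). With columns scaled, the 2 h medians were 1.24 (firing) and 1.31 (fork), and 28 genes were highest at 2 h, 25 of them also without scaling. The licensing mean at 8 h was 0.345, where ORC1 and ORC3 weigh. Otherwise the cause was not tested. Motif counts and an intensity trend in the moderation were not run.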
